A study of Mus musculus with 6 samples.

Results

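Nuclear genes of the mitochondrial respiratory chain and ATP synthase were examined in skeletal muscle of mdx mice. These mice carry a mutation that abolishes dystrophin, and their muscle degenerates and regenerates amid inflammation. Members are genes whose symbols begin with Nduf, Uqcr, Cox4 to Cox8 or Atp5, together with Sdha, Sdhb, Sdhc and Sdhd. Probe sets that carry 1 gene symbol named 89 such genes among the 19752 genes measured, and each gene is represented by its brightest probe set. The members comprise 34 subunits of complex I, 7 assembly factors of complex I, 4 subunits of complex II, 8 of complex III, 17 of complex IV, 17 of ATP synthase and 2 relatives counted outside the complexes. Cox7c, Ndufb4, Ndufb4b and Ndufs5-ps lie only on probe sets shared with other symbols and were not analysed here.

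There were 3 samples from mdx mice treated with anti-CD25 (clone PC61), a rat antibody against the alpha chain of the interleukin-2 receptor that is used to deplete regulatory T cells, and 3 from mdx mice treated with rat IgG. Both groups received 2 intraperitoneal injections, on days 17 and 20 of age, at a dose that the design text writes as 100 mg, and all samples share the mdx background. By the design text, dissection followed 7 days after the second injection, on day 27, but by the sample labels the mice were 6 weeks old, or 42 days. Which muscle was taken, the strain behind the mdx allele and whether each sample is a separate animal are not given in the labels. The p-values therefore set group differences against the spread among these samples only, part of which may be technical.

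All animals are labelled male, yet Xist, the RNA of the inactive X chromosome, measured 11.94 log2 units on anti-CD25 arrays 1 and 2 and 11.92 and 11.77 on rat IgG arrays 1 and 2, against 5.49 on anti-CD25 array 3 and 5.48 on rat IgG array 3. Kdm5d, Eif2s3y and Uty, which lie on the Y chromosome, had the opposite pattern. Each group thus holds 2 arrays with high Xist and 1 with low Xist, and values are given below for both kinds. Markers of muscle fibres, such as Acta1 and Ckm, were bright, with all 9 measured at means of 12.59 to 13.80 log2 units. Across the 6 arrays the median intensity was 149.8 to 151.5 and the lower quartile 51.2 to 57.7. Arrays of the same group correlated across genes at 0.991 to 0.996 and arrays of different groups at 0.992 to 0.995, where genes are no independent replicates.

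The respiratory chain passes electrons from NADH, through complex I, and from succinate, through complex II, to complexes III and IV, where oxygen is reduced. Complexes I, III and IV pump protons across the inner mitochondrial membrane, and ATP synthase uses their return flow to make ATP. Most subunits are encoded in the nucleus and imported, and muscle fibres, above all oxidative ones, carry them in abundance. Several subunits of complex IV have a heart and skeletal muscle isoform beside one made in most tissues.

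With anti-CD25, 67 of the 89 members had a lower mean log2 intensity than with rat IgG and 22 had a higher one, but the differences were small. Differences are given as anti-CD25 minus rat IgG. Their median was -0.050 log2 units over the members and -0.026 over all genes. The share of members that were lower was 75.3%, beside 58.9% of all genes. Differences ran from -0.25 for Cox7b2, a testis-type subunit of complex IV with a dim probe set, to 0.19 for Ndufaf5, an assembly factor of complex I, which correspond to ratios of 0.838 and 1.137. Of the members, 63 lay within 0.1 log2 units of no difference.

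No member passed an adjusted p of 0.05 in limma's test over all 19752 genes, where the share called was 0%, and the members' adjusted p ran from 0.75 to 0.998. At an unadjusted p under 0.05 the count of members was also 0, beside 3.98% of all genes called lower and 2.3% called higher. All 89 of the members' 95% intervals held 0. The median half-width of those intervals was 0.20 log2 units, so differences of that size could not be told from none with 3 arrays a group. The groups did not overlap for 8 members that were lower (7.46% of all genes) and 2 that were higher (4.28% of all genes). Those counts change with scaling, to 3 lower members (6.62% of all genes) with median-centred arrays and 15 (7.98%) after a second quantile normalization. RNA came from whole muscle, in which fewer cells of a type and less RNA per cell cannot be told apart.

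**Figure D1:**
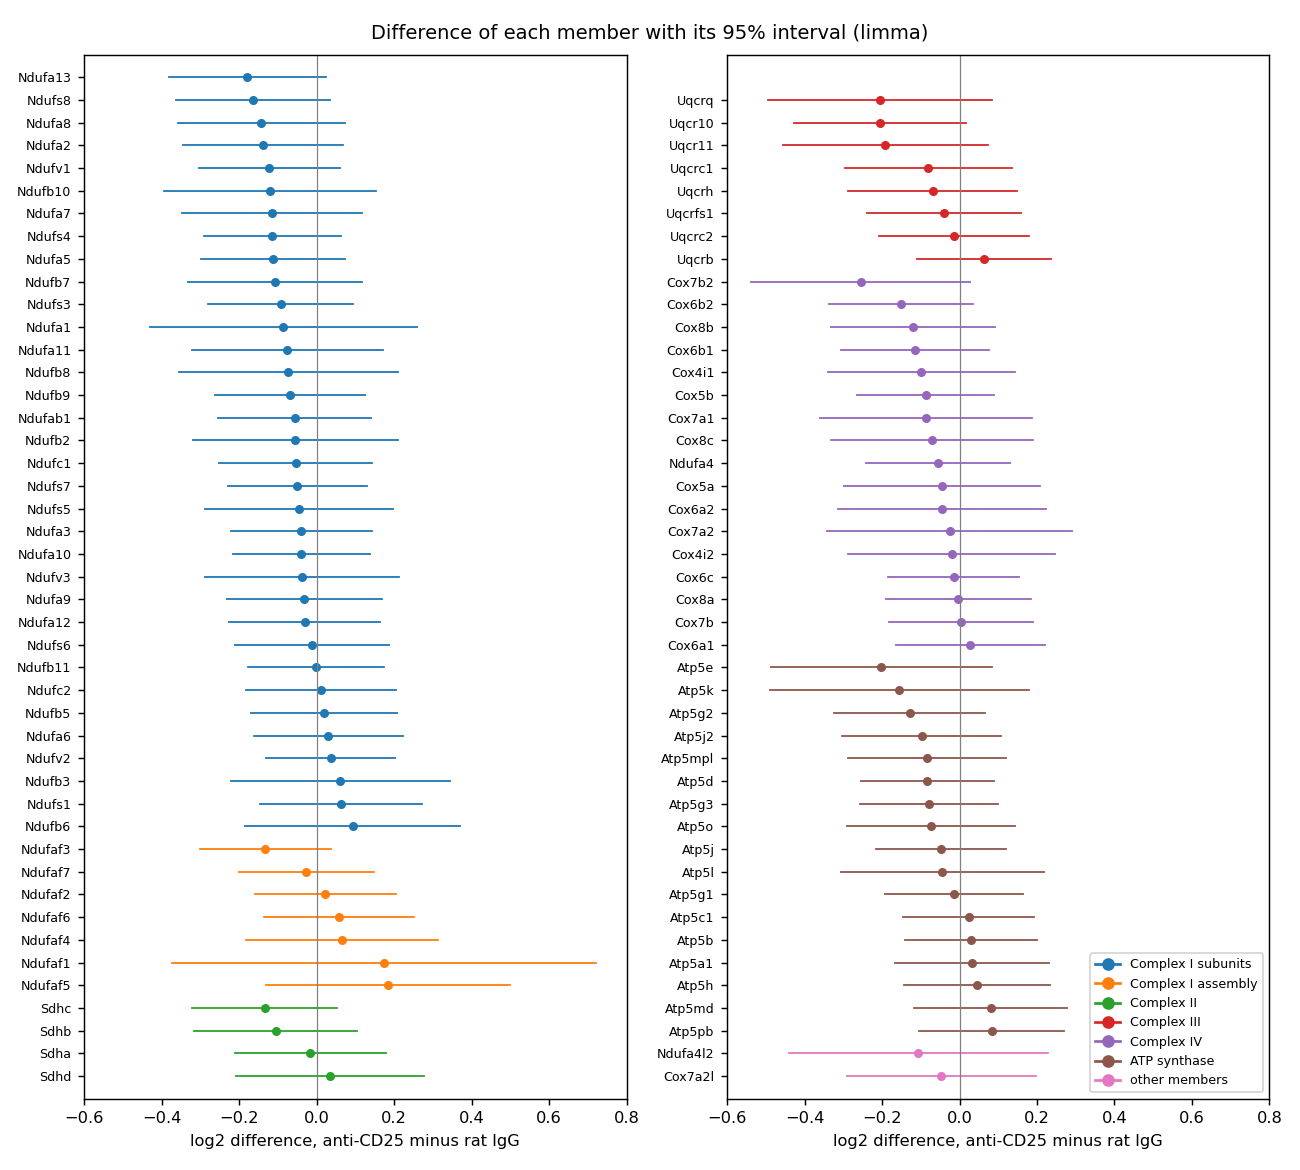
Each point is the log2 difference of 1 member, anti-CD25 minus rat IgG, with its 95% interval from limma (3 arrays per group), coloured by complex and ordered by size within it. The points lie between -0.25 and 0.19, 67 of 89 of them below 0, and all 89 intervals cross 0.

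The members' average also differed between arrays of the same group. Relative to each gene's mean over the 6 arrays, the average of the 89 members was 0.021, 0.013 and -0.11 log2 units on anti-CD25 arrays 1, 2 and 3, against -0.029, 0.079 and 0.026 on rat IgG arrays 1, 2 and 3. The groups overlap, anti-CD25 array 3 stands lowest and rat IgG array 2 highest. The lowest value lay on anti-CD25 array 3 for 57 members, 64% of them, compared with 16.9% of all genes. The highest lay on rat IgG array 2 for 52 members, 58.4%, compared with 24.3% of all genes. The 1976 genes above the 90th percentile of mean intensity, where 62 of the members also lie, averaged 0.011, 0.036 and -0.011 with anti-CD25, against -0.012, -0.041 and 0.017 with rat IgG. That set had a median difference of 0.017 and 42.8% of its genes lower.

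Of the arrays left out in turn, anti-CD25 array 3 was the one whose removal brought the small lower shift nearest to no difference. Without it, the median difference of the members was -0.0082 and 48 of 89 were lower. Leaving out rat IgG array 1 gave a median of -0.094, and leaving out anti-CD25 array 2 gave the highest count, 71 lower. Among the 4 arrays with high Xist the median was -0.0086, with 47 members lower, beside -0.036 over all genes. Between the 2 arrays with low Xist, anti-CD25 array 3 and rat IgG array 3, it was -0.13, with 72 members lower, beside 0.0000 over all genes, a difference of single arrays with no test. In both comparisons 41 of 89 members were lower and 11 were higher, beside 4988 and 3515 of the 19752 genes.

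**Figure D2:**
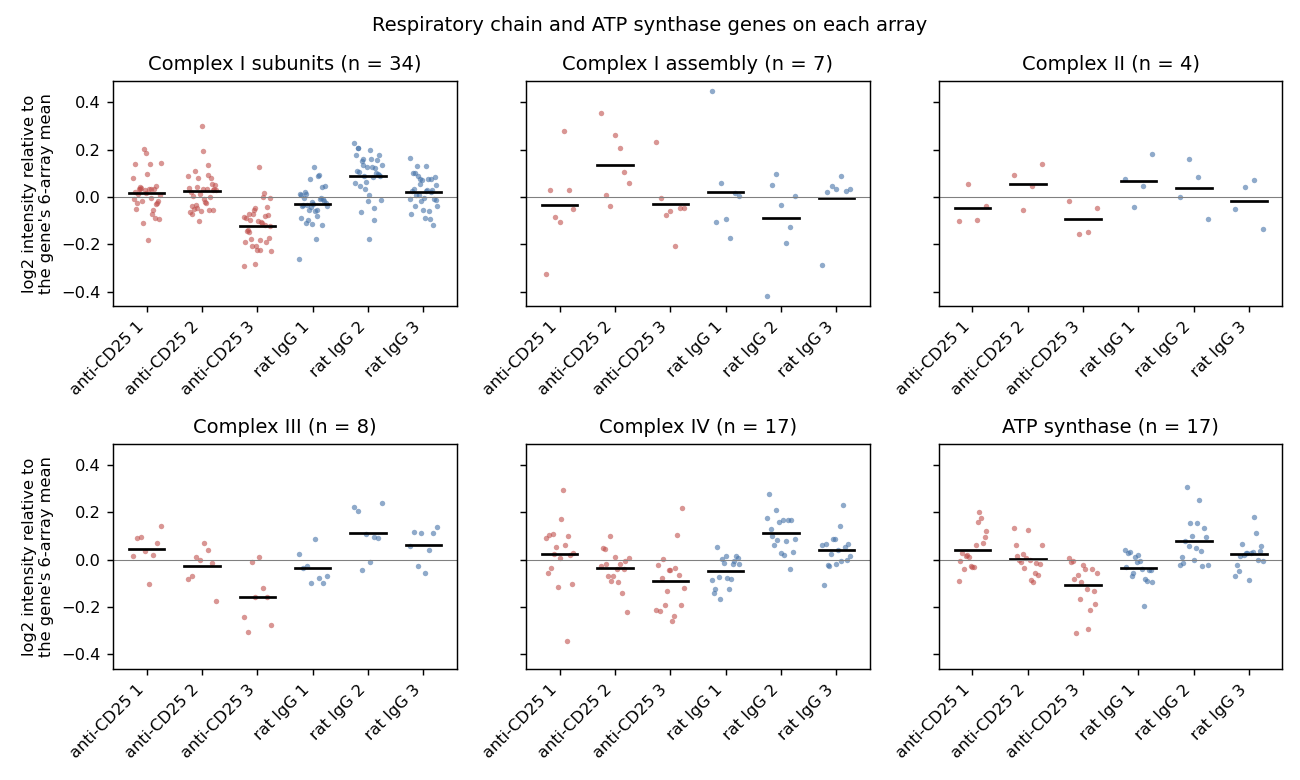
Points are members, black lines their mean on each array, and the vertical axis is log2 intensity relative to the gene's mean over the 6 arrays, in 1 panel for each complex. Means of complexes I, III, IV and ATP synthase are lowest on anti-CD25 array 3 (-0.12, -0.16, -0.090 and -0.11) and highest on rat IgG array 2, whereas the assembly factors are highest on anti-CD25 array 2 (0.14).

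Complex I, the NADH dehydrogenase, had 27 of 34 subunits lower with anti-CD25, with a median of -0.054 and a range of -0.18 to 0.093. Its array means were 0.017, 0.023 and -0.12 with anti-CD25, against -0.030, 0.089 and 0.022 with rat IgG. Of 6 core subunits measured, which belong to the conserved catalytic part of the enzyme, 4 were lower with a median of -0.071. The other 28 subunits had 23 lower and a median of -0.054, and the difference between core and accessory subunits was not tested. Without anti-CD25 array 3 the median of complex I was -0.0048.

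Ndufa13, an accessory subunit also known as Grim19, had the lowest difference in complex I. It measured 10.54, 10.52 and 10.45 log2 units with anti-CD25, against 10.55, 10.80 and 10.69 with rat IgG. The groups do not overlap, although anti-CD25 array 1 and rat IgG array 1 are nearly equal. The difference was -0.18 (95% interval -0.38 to 0.023, limma adjusted p = 0.75). Ndufv1, which binds the NADH-oxidising flavin, measured 10.98, 11.11 and 10.95 with anti-CD25, against 11.12, 11.16 and 11.13 with rat IgG, a difference of -0.12 (95% interval -0.30 to 0.060). Its groups were also apart, by the narrow gap between anti-CD25 array 2 and rat IgG array 1.

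Ndufs1, the largest core subunit, had 10.78, 10.97 and 10.85 log2 units with anti-CD25, against 10.93, 10.74 and 10.74 with rat IgG. Its groups overlap, and here rat IgG array 2 is among the lowest rather than the highest. The highest difference in the complex was that of Ndufb6, an accessory subunit of the membrane arm, at 0.093 (95% interval -0.19 to 0.37). Its values were 11.31, 11.68 and 11.62 with anti-CD25, against 11.62, 11.31 and 11.40 with rat IgG, so that the lowest and the highest arrays come from both groups. Ndufv2, a core subunit chosen after its values were seen, was the only complex I subunit higher without overlap, by 0.036 log2 units.

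The 7 assembly factors, which build complex I and are not part of the finished enzyme, were counted apart from the subunits. With anti-CD25, 5 were higher and 2 lower, with a median of 0.058, and leaving out 1 array at a time kept that median between 0.0083 and 0.096. Between the 2 low-Xist arrays alone the median was -0.079. Array means were -0.033, 0.14 and -0.029 with anti-CD25, against 0.021, -0.089 and -0.0062 with rat IgG.

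Ndufaf5, a methyltransferase-like factor known from human cells to hydroxylate the subunit NDUFS7, measured 7.55, 7.47 and 7.06 with anti-CD25, against 7.09, 7.08 and 7.36 with rat IgG. Anti-CD25 array 3 lies below every rat IgG array and the other anti-CD25 arrays lie above them. The difference was 0.19 (95% interval -0.13 to 0.50), and it was -0.29 between the 2 low-Xist arrays. Ndufaf3, which acts early in assembly, had 8.74, 8.79 and 8.75 with anti-CD25, against 8.88, 8.92 and 8.87 with rat IgG. These groups were apart on every array, and the difference was -0.13 (95% interval -0.30 to 0.036), within -0.15 to -0.12 whichever array was left out. Ndufaf1, chosen after its values were seen, had the widest spread of any member, at 9.44 to 10.12 with anti-CD25 and 9.35 to 10.21 with rat IgG.

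Complex II, succinate dehydrogenase, is the citric acid cycle enzyme of the chain and is wholly nuclear encoded. Of its 4 genes 3 were lower with anti-CD25, with a median of -0.061. Sdhc, a membrane anchor, measured 11.47, 11.62 and 11.42 with anti-CD25, against 11.62, 11.65 and 11.64 with rat IgG. The groups did not overlap, but anti-CD25 array 2 equals the lowest rat IgG array to 2 decimals. The difference was -0.13 (95% interval -0.32 to 0.054). Sdhb, the iron-sulphur subunit, had 11.26, 11.15 and 11.05 with anti-CD25, against 11.16, 11.36 and 11.24 with rat IgG, with overlapping groups.

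Sdha, the flavoprotein that oxidises succinate, had 11.71, 11.90 and 11.79 with anti-CD25, against 11.88, 11.81 and 11.76 with rat IgG, and a difference of -0.016 (95% interval -0.21 to 0.18). Sdhd, the other membrane anchor, had 10.79, 10.97 and 10.78 with anti-CD25, against 11.01, 10.74 and 10.70 with rat IgG, and a difference of 0.034 (95% interval -0.21 to 0.28). For both genes the groups interleave, and the sign of the difference turned when single arrays were left out.

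Complex III, the cytochrome bc1 complex, had the lowest median of the complexes, -0.075, with 7 of 8 genes lower. Its array means were 0.046, -0.028 and -0.16 with anti-CD25, against -0.036, 0.11 and 0.062 with rat IgG, and without anti-CD25 array 3 the median was -0.022. The lowest values belonged to small subunits. Uqcrq, which holds a place near the cytochrome b core, measured 10.60, 10.28 and 10.18 with anti-CD25, against 10.38, 10.69 and 10.59 with rat IgG. Anti-CD25 array 1 lies among the rat IgG arrays, and the difference was -0.21 (95% interval -0.50 to 0.083).

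Uqcr10, chosen after its values were seen because it had the smallest unadjusted limma p of any member (0.067, adjusted p = 0.75), measured 9.86, 9.77 and 9.60 with anti-CD25, against 9.87, 10.07 and 9.91 with rat IgG. Its groups were apart by only the gap between the arrays numbered 1, and the difference was -0.20 (95% interval -0.43 to 0.018). Uqcrc1, a core protein that faces the matrix, had 11.55, 11.51 and 11.36 with anti-CD25, against 11.42, 11.62 and 11.63 with rat IgG. Uqcrfs1, the Rieske iron-sulphur protein, had 9.23, 9.25 and 9.09 with anti-CD25, against 9.13, 9.31 and 9.25 with rat IgG. Both overlap between groups, with differences of -0.081 (95% interval -0.30 to 0.14) and -0.040 (95% interval -0.24 to 0.16).

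Uqcrb, a small matrix-side subunit, was the exception in complex III. It measured 12.41, 12.33 and 12.30 with anti-CD25, against 12.29, 12.27 and 12.29 with rat IgG. All anti-CD25 arrays lie above all rat IgG arrays, with a difference of 0.064 (95% interval -0.11 to 0.24, limma adjusted p = 0.86).

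Complex IV, cytochrome c oxidase, had 15 of 17 genes lower, with a median of -0.056 and a range of -0.25 to 0.028. Array means were 0.024, -0.037 and -0.090 with anti-CD25, against -0.050, 0.11 and 0.040 with rat IgG. Without anti-CD25 array 3 the median was -0.011. Cox4i1, the common form of the subunit through which ATP regulates the enzyme, measured 10.56, 10.44 and 10.26 with anti-CD25, against 10.38, 10.64 and 10.53 with rat IgG. Cox5a, a matrix-side subunit, had 10.68, 10.62 and 10.35 with anti-CD25, against 10.45, 10.70 and 10.64 with rat IgG. In both genes anti-CD25 array 3 is the lowest of the 6 and the groups overlap, with differences of -0.098 (95% interval -0.34 to 0.14) and -0.046 (95% interval -0.30 to 0.21).

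Cox5b, the zinc-binding subunit, had 12.02, 12.04 and 11.98 with anti-CD25, against 12.11, 12.16 and 12.03 with rat IgG. The groups overlap by the small step between anti-CD25 array 2 and rat IgG array 3, and the difference was -0.087 (95% interval -0.26 to 0.089). Ndufa4, first assigned to complex I and now placed in complex IV, had 10.45, 10.43 and 10.31 with anti-CD25, against 10.41, 10.51 and 10.44 with rat IgG, a difference of -0.056 (95% interval -0.24 to 0.13).

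ATP synthase had 11 of 17 genes lower, with a median of -0.048 and a range of -0.20 to 0.083. Array means were 0.042, 0.0019 and -0.11 with anti-CD25, against -0.037, 0.078 and 0.022 with rat IgG, and the median was 0.00050 without anti-CD25 array 3. Among the 4 high-Xist arrays 7 of 17 were lower (median 0.011), and between the 2 low-Xist arrays 13 of 17 (median -0.095). The F1 part, which holds the catalytic subunits and the central stalk, had 2 of 5 genes lower and a median of 0.024. That median turned to -0.032 with 4 lower after a second quantile normalization, and to -0.026 with 3 lower without anti-CD25 array 2. The remaining 12 genes had 9 lower and a median of -0.061, and the difference between these parts was not tested. Atp5a1, the alpha subunit, measured 12.26, 12.48 and 12.36 with anti-CD25, against 12.39, 12.33 and 12.28 with rat IgG. Atp5b, the catalytic beta subunit, had 13.23, 13.30 and 13.23 with anti-CD25, against 13.21, 13.25 and 13.22 with rat IgG. Both lie within 0.032 log2 units of no difference and their groups overlap, and the sign for Atp5b turned, to -0.0018, after a second quantile normalization.

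Atp5e, the small epsilon subunit of the central stalk, had the lowest difference of the enzyme, -0.20 (95% interval -0.49 to 0.084). It measured 9.65, 9.63 and 9.32 with anti-CD25, against 9.56, 9.94 and 9.70 with rat IgG, so anti-CD25 array 3 and rat IgG array 2 mark its ends. Atp5pb, the b subunit of the peripheral stalk, had the highest, 0.083 (95% interval -0.10 to 0.27), from 11.82, 11.76 and 11.65 with anti-CD25 and 11.61, 11.68 and 11.70 with rat IgG. A second probe set of Atp5pb differed by -0.11, so its probe sets disagree in direction.

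The members outside the complexes were Ndufa4l2, a hypoxia-responsive relative of Ndufa4, and Cox7a2l, a factor that joins complexes III and IV. Ndufa4l2 measured 7.20, 7.28 and 7.04 with anti-CD25, against 6.97, 7.58 and 7.29 with rat IgG, so that rat IgG holds both ends of the range. Cox7a2l, chosen after its values were seen, differed by -0.047 on the probe set used and by 0.27 on its other one. In all, 17 members had several probe sets. The 72 members with a single probe set had 55 lower and a median of -0.055, and the 17 with several had 12 lower and a median of -0.045.

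**Figure D3:**
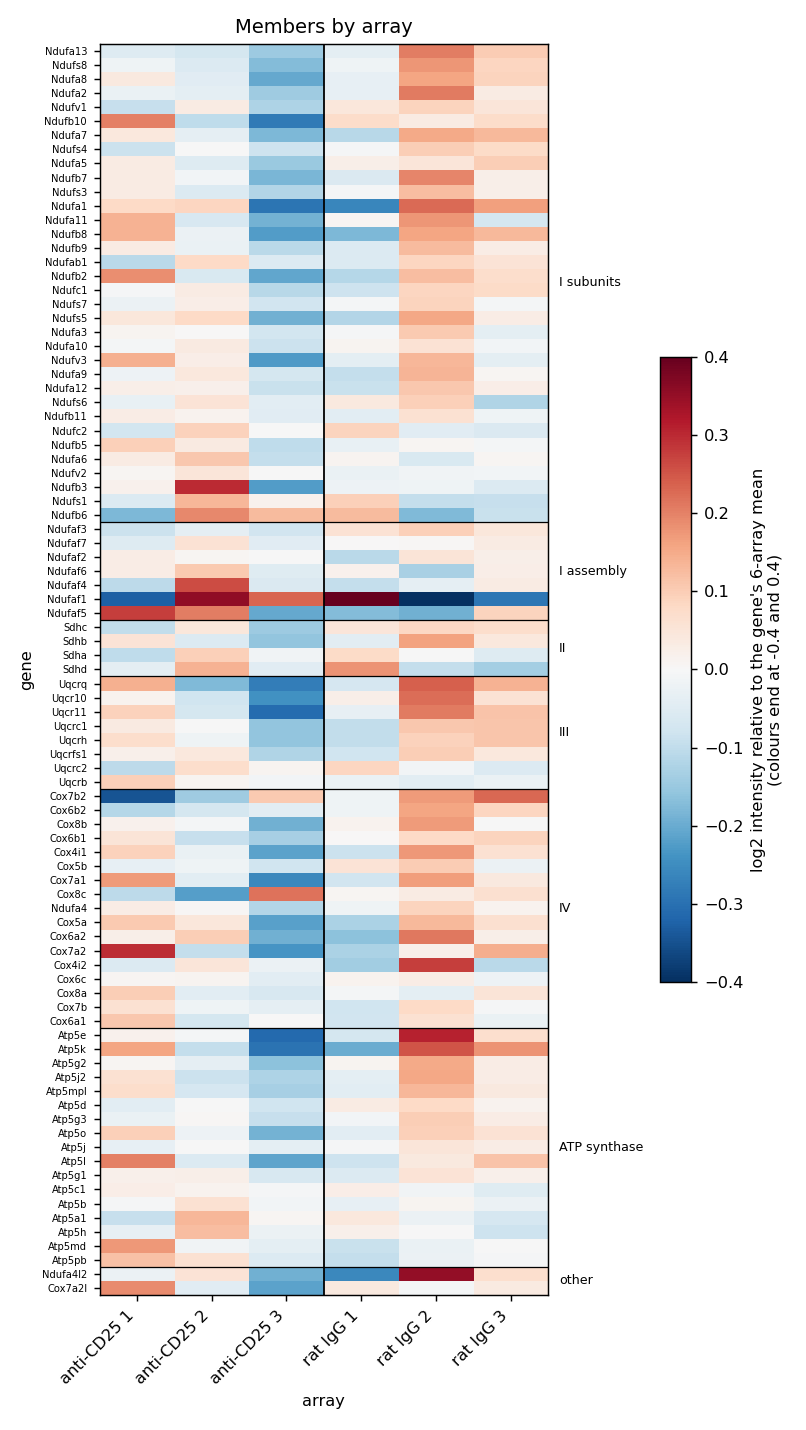
Rows are the 89 members ordered by complex and difference, columns are arrays, and colour is log2 intensity relative to the gene's mean over the 6 arrays, with colours ending at -0.4 and 0.4. Anti-CD25 array 3 is the lowest array for 57 members and rat IgG array 2 the highest for 52, while a few rows, such as Ndufaf1 and Ndufb6, run the other way.

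Isoforms were compared within each array, as the log2 ratio of one isoform's intensity to that of its partner. Probe sets differ in brightness, so a ratio's level carries no meaning and only its change between arrays is compared. In 9 pairs the exact two-sided permutation test of 3 arrays against 3 cannot go below 0.1, so no pair could pass 0.05. For the muscle isoforms of complex IV the groups overlapped in every ratio, and with 3 arrays a group a small difference remains undecided.

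The log2 ratio of Cox6a2, the heart and skeletal muscle form of subunit VIa, to Cox6a1, its common partner, was 2.68, 2.93 and 2.57 with anti-CD25, against 2.67, 2.91 and 2.81 with rat IgG. The arrays of both groups cover much the same range (difference -0.074, exact permutation p = 0.8, 0.9 after Benjamini-Hochberg adjustment over the 9 pairs). Cox7a1, the muscle form of subunit VIIa, over Cox7a2 gave 1.62, 1.80 and 1.72 with anti-CD25, against 1.79, 1.89 and 1.64 with rat IgG, again with interleaved arrays (difference -0.061, exact permutation p = 0.5, adjusted p = 0.9). For Cox8b, the muscle form of subunit VIII, over Cox8a the ratio was 2.19, 2.31 and 2.14 with anti-CD25, against 2.29, 2.48 and 2.22 with rat IgG. Rat IgG array 2 is highest and the groups overlap (difference -0.12, exact permutation p = 0.3, adjusted p = 0.675).

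The genes behind these ratios overlapped between groups as well. Cox6a2 measured 11.79, 11.86 and 11.57 with anti-CD25, against 11.60, 11.97 and 11.79 with rat IgG. Cox7a1 measured 12.34, 12.12 and 11.91 with anti-CD25, against 12.09, 12.33 and 12.21 with rat IgG. Cox8b measured 12.63, 12.61 and 12.42 with anti-CD25, against 12.63, 12.78 and 12.61 with rat IgG. In these muscle forms anti-CD25 array 3 is the lowest array and rat IgG array 2 is at or near the top. Their common partners spread less uniformly. Cox6a1 had 9.11, 8.93 and 9.01 with anti-CD25, against 8.93, 9.06 and 8.98 with rat IgG. Cox7a2 had 10.71, 10.32 and 10.18 with anti-CD25, against 10.29, 10.44 and 10.56 with rat IgG. Cox8a had 10.44, 10.30 and 10.28 with anti-CD25, against 10.33, 10.30 and 10.39 with rat IgG. In all 3 partners the highest array is anti-CD25 array 1, with differences of 0.028, -0.025 and -0.0035.

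The other complex IV pairs set an isoform found mainly in lung or testis against a common one. Cox4i2, the lung form of subunit IV, had 7.60, 7.70 and 7.63 with anti-CD25, against 7.51, 7.93 and 7.55 with rat IgG. Cox6b2, a testis form, had 6.14, 6.19 and 6.22 with anti-CD25, against 6.24, 6.41 and 6.34 with rat IgG, without overlap and with a difference of -0.15 (95% interval -0.34 to 0.034). Its common partner Cox6b1 had 12.11, 11.96 and 11.92 with anti-CD25, against 12.06, 12.14 and 12.14 with rat IgG. Ratios of neither pair stood apart, at 0.078 for Cox4i2 over Cox4i1 (exact permutation p = 0.7, adjusted p = 0.9) and -0.036 for Cox6b2 over Cox6b1 (exact permutation p = 0.9, adjusted p = 0.9).

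Cox7b2, the member with the lowest difference of all, had the dimmest probe set, at 4.24, 4.45 and 4.70 with anti-CD25, against 4.57, 4.76 and 4.82 with rat IgG. Its intensity lies under the lower quartile of every array, where RMA draws values together. Cox7b, its common partner, had 12.84, 12.77 and 12.75 with anti-CD25, against 12.70, 12.86 and 12.78 with rat IgG. The ratio differed by -0.26 with overlapping arrays (exact permutation p = 0.3, adjusted p = 0.675). Ndufa4l2 over Ndufa4 differed by -0.050 (exact permutation p = 0.7, adjusted p = 0.9).

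Atp5g1, Atp5g2 and Atp5g3 encode the same mature c subunit of the ATP synthase rotor, with different import sequences. All 3 had a lower mean with anti-CD25, with differences of -0.013, -0.13 and -0.078 log2 units. Atp5g1 measured 12.88, 12.88 and 12.80 with anti-CD25, against 12.81, 12.92 and 12.88 with rat IgG. Atp5g2 had 11.97, 11.92 and 11.79 with anti-CD25, against 11.97, 12.11 and 11.99 with rat IgG, where the arrays numbered 1 are equal to 2 decimals. Atp5g3 had 12.17, 12.20 and 12.10 with anti-CD25, against 12.18, 12.30 and 12.22 with rat IgG. In each of the 3 genes anti-CD25 array 3 is lowest and rat IgG array 2 highest.

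Within arrays, Atp5g1 over Atp5g3 was the only pair of the 9 whose groups did not overlap. The log2 ratio was 0.71, 0.68 and 0.69 with anti-CD25, against 0.62, 0.62 and 0.66 with rat IgG, higher in all 3 anti-CD25 arrays than in any rat IgG array. The difference was 0.064, its exact permutation p of 0.1 is the smallest this design can give, and the adjusted p was 0.675. Leaving out 1 array at a time moved it only between 0.057 and 0.076. The ratio of Atp5g2 to Atp5g3 differed by -0.051 (exact permutation p = 0.3, adjusted p = 0.675).

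**Figure D4:**
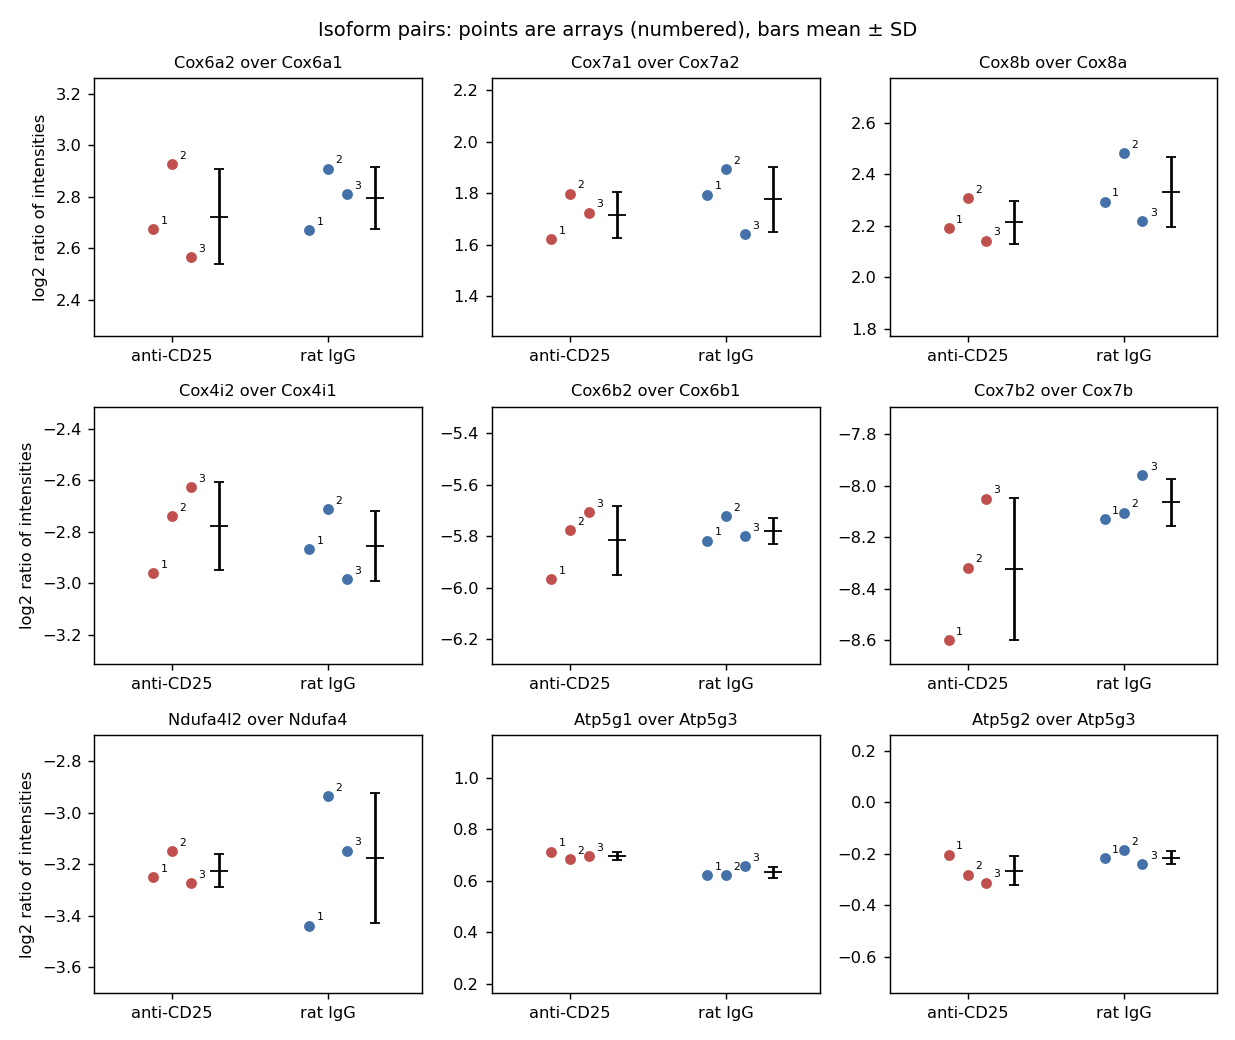
Each panel shows the log2 ratio of 2 isoforms on every array, anti-CD25 left and rat IgG right, with the array's number beside its point and bars for mean ± SD (n = 3 per group). In 8 panels the groups overlap; for Atp5g1 over Atp5g3 the anti-CD25 arrays lie at 0.68 to 0.71 and the rat IgG arrays at 0.62 to 0.66.

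Many respiratory genes share promoter elements for NRF-1 and for ETS factors such as GABP, through which the coactivator PGC-1alpha is known to act. Promoters were available for 73 members, from RefSeq (GRCm38.p6), as the 300 bases from 250 before the transcription start to 50 after it. The NRF-1 letters GCGCNTGCG occurred on either strand in 25 of the 73, or 34.2%, against 7.12% of all 27025 genes with a promoter of this length. The ETS letters CCGGAAG occurred in 18, or 24.7%, against 9.93%, and the YY1 letters AAGATGGCG in 7, or 9.59%, against 1.64%. The ERR letters TNAAGGTCA occurred in 2, or 2.74%, against 1.43%. Any of the 4 occurred in 41 members, 56.2%, against 17.9% of those genes. Such matches describe letters and do not show binding.

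The 250 bases before the start are printed for 4 members, 5′ to 3′ on the gene's strand, with matches in capitals. Sdha shows the NRF-1 letters, Cox6a1 shows the NRF-1 and ETS letters, and Cox7a1 and Cox8b, muscle isoforms compared above, have no match in their windows.
Sdha, chr13:74350241-74350490, minus strand: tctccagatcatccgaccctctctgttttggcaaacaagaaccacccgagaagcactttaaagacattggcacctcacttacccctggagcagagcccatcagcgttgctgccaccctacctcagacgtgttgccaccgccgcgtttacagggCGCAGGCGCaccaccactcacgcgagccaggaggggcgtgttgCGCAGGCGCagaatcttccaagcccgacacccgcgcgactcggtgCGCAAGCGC
Cox6a1, chr5:115348959-115349208, minus strand: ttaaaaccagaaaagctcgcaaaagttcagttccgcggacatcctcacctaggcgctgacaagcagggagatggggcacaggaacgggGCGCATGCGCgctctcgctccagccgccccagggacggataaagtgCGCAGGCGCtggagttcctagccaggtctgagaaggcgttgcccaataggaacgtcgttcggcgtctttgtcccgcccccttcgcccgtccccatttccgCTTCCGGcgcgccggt
Cox7a1, chr7:30183921-30184170, plus strand: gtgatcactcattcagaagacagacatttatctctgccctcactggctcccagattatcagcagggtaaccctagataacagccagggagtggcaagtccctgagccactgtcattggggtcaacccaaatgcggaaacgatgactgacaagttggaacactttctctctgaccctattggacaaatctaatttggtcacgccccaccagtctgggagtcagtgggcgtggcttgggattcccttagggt
Cox8b, chr7:140900447-140900696, minus strand: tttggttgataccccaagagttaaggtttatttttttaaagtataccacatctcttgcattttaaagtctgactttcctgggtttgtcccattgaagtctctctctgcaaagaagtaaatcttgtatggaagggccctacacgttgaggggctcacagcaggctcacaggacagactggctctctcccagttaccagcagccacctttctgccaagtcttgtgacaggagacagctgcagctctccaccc
In Sdha the NRF-1 letters lie at -97 to -89, -54 to -46 and -9 to -1 from the start. In Cox6a1 they lie at -162 to -154 and, overlapping on the opposite strand, at -161 to -153, and again at -116 to -108, with the ETS letters at -16 to -10.

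Members were also divided by whether their promoters hold these letters. The 25 with NRF-1 letters had 17 lower and a median of -0.045, and the 48 without had 38 lower and a median of -0.052. With any of the 4 sets of letters 31 of 41 were lower, with a median of -0.069, and without any 24 of 32 were lower, with a median of -0.043. The difference between these sets was not tested.

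The regulators named above were measured too, in a list of 11 with 7 higher, 4 lower, none past the adjusted threshold and a median of 0.046. That median was 0.0050 without rat IgG array 2, and between the low-Xist arrays it was -0.078 with 8 lower. Ppargc1a, which encodes PGC-1alpha, measured 9.65, 9.90 and 9.94 log2 units with anti-CD25, against 9.32, 9.48 and 9.26 with rat IgG. Every anti-CD25 array lies above every rat IgG array, and the difference was 0.48 (SE 0.10, limma adjusted p = 0.75). It was 0.38 among the high-Xist arrays and 0.68 between the low-Xist arrays. Ppargc1b, the related coactivator PGC-1beta, lay the other way, at 8.34, 8.42 and 8.19 with anti-CD25, against 8.67, 8.62 and 8.48 with rat IgG. Those groups do not overlap either, with a difference of -0.27 (SE 0.094, limma adjusted p = 0.75).

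Transcription factors of the list that bind respiratory promoters, and the mitochondrial factor Tfam, overlapped between groups. Esrra, the nuclear receptor ERR alpha, differed by -0.10, Nrf1 by 0.074 and Gabpa by 0.070. Tfam, which packages and maintains mitochondrial DNA, differed by 0.046.

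**Figure D5:**
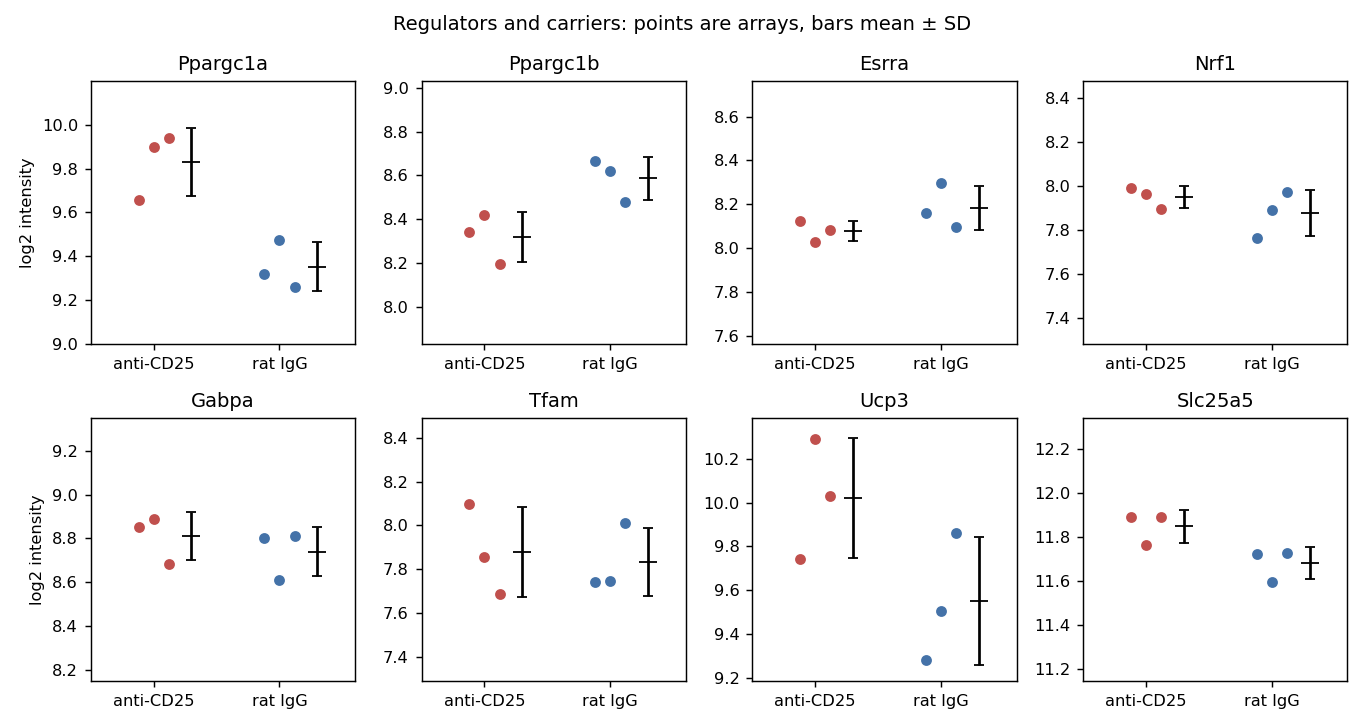
Points are log2 intensities on each array, anti-CD25 left and rat IgG right, with bars for mean ± SD (n = 3 per group), for 6 regulators and 2 carriers. Groups are apart for Ppargc1a and Slc25a5 (higher with anti-CD25) and for Ppargc1b (lower), and they overlap in the other 5 panels. Of all genes, 4.28% were higher and 7.46% lower without overlap. The genes shown were picked from longer lists, and the 2 carriers have the largest differences of theirs.

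Lists of other mitochondrial genes were described in the same way. The citric acid cycle had 10 of 12 genes lower with a median of -0.036 (8 lower with median-centred arrays). The 77 mitochondrial ribosomal proteins had 38 lower and 39 higher with a median of 0.00010, or 48 lower and 29 higher after a second quantile normalization. By array kind they had 25 lower among the high-Xist arrays (median 0.048) and 59 lower between the low-Xist arrays (median -0.096). Electron carriers and assembly factors of complexes II, III and IV had 12 of 19 lower (median -0.024). Cyc1, the cytochrome c1 subunit of complex III, was counted in that list and not among the members, and it differed by -0.056. Assembly factors of complex I and ATP synthase outside the Nduf and Atp5 names, with the ATP synthase inhibitor, had 7 of 11 lower (median -0.011). Glycolysis had 6 of 9 lower (median -0.025). None of these genes passed an adjusted p of 0.05.

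Carriers and energy transfer proteins of the mitochondrial membranes were higher in 8 of 8 cases, with a median of 0.078, but in 5 of 8 after a second quantile normalization. Ucp3, the muscle uncoupling protein, measured 9.74, 10.29 and 10.03 with anti-CD25, against 9.28, 9.51 and 9.86 with rat IgG, a difference of 0.47 (SE 0.17, limma adjusted p = 0.75) with overlapping groups. Slc25a5, an ADP and ATP exchanger, had 11.89, 11.76 and 11.89 with anti-CD25, against 11.73, 11.60 and 11.73 with rat IgG, without overlap and with a difference of 0.17. Slc25a4, the exchanger of muscle, differed by only 0.039. Of the mitochondrially encoded genes 2 had a probe set of their own, ND3 of complex I and COX2 of complex IV, with differences of 0.084 and 0.12. The groups did not overlap for ND3, although its arrays numbered 3 are equal to 2 decimals, at 12.87. COX2 overlapped, at 13.43, 13.30 and 13.29 with anti-CD25, against 13.16, 13.17 and 13.32 with rat IgG. Between the low-Xist arrays 1 of these 2 genes was lower and 1 higher (median -0.013).

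Markers of cell types moved across the same arrays. Of 10 slow fibre markers, such as Myh7 and Tnnt1, 9 were lower with a median of -0.19, and their array means were 0.0075, 0.10 and -0.39 with anti-CD25, against 0.14, 0.25 and -0.12 with rat IgG. In these means anti-CD25 array 3 is lowest and rat IgG array 2 highest, a course that single markers did not all share. Myh7 followed it (9.75 and 11.25), but Tpm3 was highest on anti-CD25 array 3 (11.65) and lowest on rat IgG array 2 (11.29). Tnnt1 was highest on rat IgG array 1 (10.63) and lowest on rat IgG array 3 (9.97). Without anti-CD25 array 3 the count was 6 slow fibre markers lower and the median -0.039. Among the high-Xist arrays 9 slow fibre markers were lower (median -0.14), and between the low-Xist arrays 6 were lower and 4 higher (median -0.26). Their mean log2 level was 9.963 to 10.450 with anti-CD25 and 10.226 to 10.600 with rat IgG, and none lay under the lower quartile. All 11 macrophage markers measured were higher, with a median of 0.29 and mean levels of 9.908 to 10.307 with anti-CD25, against 9.624 to 10.004 with rat IgG, and none lay under the lower quartile. Among the high-Xist arrays all 11 macrophage markers were higher (median 0.33), and between the low-Xist arrays 8 were higher and 3 lower (median 0.21). Their array means were 0.33, -0.071 and 0.21 with anti-CD25, against -0.14, -0.35 and 0.025 with rat IgG, lowest on rat IgG array 2. Regenerating fibre markers had 7 of 10 lower (median -0.15) and fast fibre markers 7 of 10 lower (median -0.034). Lists for T and B cells, fibroblasts, adipocytes, endothelium, nerve, erythrocytes and heart had medians from -0.11 to 0.046. The part of these markers in the respiratory values was not tested.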

How the data were processed

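RNA of 6 skeletal muscle samples was hybridised to 1 Affymetrix array each. The deposited table holds an intensity for each of 24922 probe sets per array, on a linear scale. Per the submitters' processing notes, the authors used RMA in Affymetrix Power Tools, a method that subtracts background, brings arrays to a common distribution and combines probes into probe sets. No version is given in the sources used here. RMA draws dim values together, which understates their differences.

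From these intensities log2 was taken with no pseudocount and no filter. Rows with 1 symbol in the platform annotation (21425) gave 19752 genes, 1399 rows with several symbols and 2098 unlisted rows were left out, and the brightest probe set stood for each gene. Of the named rows 21347 matched a mouse gene table by Entrez identifier. limma 3.58.1 in R 4.3.3 (lmFit and eBayes, group only, two-sided) was run on all 19752 genes with Benjamini-Hochberg adjustment, a threshold of 0.05 and moderated 95% intervals. It was tested on simulated data. Isoform ratios were compared by exact permutation over arrays. The number of arrays limits the precision.

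Members named with a value on every array are the highest and lowest of each complex, fixed core subunits and both genes of each isoform pair, 37 in all; others are marked as chosen after their values were seen. The members and lists were chosen with earlier results of these data known, and they are described by counts and medians without a test. Ndufa4 was counted in complex IV. Alternatives were median centring, array weights, quantile normalization a second time, eBayes with a trend and robust fitting, a filter at the 30th percentile of intensity, the mean of a gene's probe sets, a replicate block, array subsets by Xist, and leaving out each array. The restriction to members with 1 probe set was chosen after seeing the data.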

Additional observations from a re-analysis of the deposited data

How the results depend on the processing

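Calls of members at an adjusted p of 0.05 stayed at 0 in every setting with a test, and calls over all genes at 0 in the full set of arrays, but 7 genes, none of them members, passed without rat IgG 3 (range 0 to 7). With all 6 arrays, the members' median lay between -0.079 (second quantile normalization, 74 lower) and -0.038 (array weights, 63 lower), and no median of a complex turned. Between the 2 low-Xist arrays the medians were -0.15 for complex I, -0.079 for its assembly factors and -0.082 for complex II. They were -0.27 for complex III, -0.13 for complex IV, -0.095 for ATP synthase and -0.13 for all members. Among the 4 high-Xist arrays the medians were -0.015 for complex I, 0.047 for its assembly factors and -0.050 for complex II. There they were -0.0205 for complex III, -0.011 for complex IV, 0.011 for ATP synthase and -0.0086 for all members, beside -0.036 over all genes. Leaving out single arrays gave medians of -0.094 to -0.0082 for all members, -0.10 to -0.0048 for complex I, 0.0083 to 0.096 for its assembly factors, -0.086 to -0.032 for complex II, -0.14 to -0.022 for III, -0.096 to -0.011 for IV and -0.088 to 0.00050 for ATP synthase. It gave 48 to 71 members lower, 8 (without rat IgG 2, beside 10.31% of all genes) to 27 (without rat IgG 1, beside 14.4%) lower without overlap, and 2 to 8 (without anti-CD25 3, beside 8.18%) higher without overlap, where 5.6% to 12.46% of all genes were. Members without overlap numbered 15 lower (7.98% of all genes) and 0 higher (4.96%) after a second quantile normalization, 3 lower (6.62%) with median centring, and 9 higher among the 4 high-Xist arrays, where 18.02% of all genes were higher without overlap. The cause was not tested.

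Signs of single members turned in 11 of 258 values with all 6 arrays. A second quantile normalization gave -0.0018 for Atp5b, -0.0055 for Cox6a1, -0.038 for Cox7b and 0.029 for the ratio of Cox6b2 to Cox6b1. Median centring gave 0.0044 for Cox8a. Array weights gave 0.0016 for Atp5g1, 0.0011 for Cox5a, 0.052 for Cox7a2, 0.019 for Cox8a and -0.0048 for Sdhd. The mean of all probe sets gave -0.015 for Atp5pb and -0.0092 for Cox7b. The 4 high-Xist arrays gave 0.022 for Atp5g1, 0.073 for Cox5a, 0.038 for Cox6a2, 0.019 for Cox7a1, 0.15 for Cox7a2, 0.053 for Cox8a, 0.013 for Uqcrc1, 0.021 for Uqcrfs1, -0.062 for Cox4i2 over Cox4i1 and 0.011 for Cox6a2 over Cox6a1. The 2 low-Xist arrays gave -0.050 for Atp5pb, 0.082 for Cox4i2, -0.032 for Cox7b, -0.29 for Ndufaf5, 0.035 for Sdha, 0.094 for Cox6b2 over Cox6b1 and 0.083 for Cox7a1 over Cox7a2.

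With single arrays left out, signs turned in 27 of 222 values of 14 members, with ranges of -0.026 to 0.085 for Atp5a1, -0.044 to 0.015 for Atp5g1, -0.096 to 0.11 for Cox4i2, -0.12 to 0.052 for Cox5a, -0.019 to 0.070 for Cox6a1, -0.14 to 0.048 for Cox6a2, -0.19 to 0.021 for Cox7a1, -0.18 to 0.087 for Cox7a2, -0.036 to 0.044 for Cox7b, -0.054 to 0.027 for Cox8a, -0.26 to 0.042 for Ndufa4l2, -0.067 to 0.031 for Sdha, -0.026 to 0.13 for Sdhd and -0.089 to 0.011 for Uqcrfs1. Ratios ranged from -0.18 to 0.0049 for Cox6a2 over Cox6a1, -0.091 to 0.039 for Cox6b2 over Cox6b1 and -0.18 to 0.069 for Ndufa4l2 over Ndufa4. The labels do not say what the numbers in the titles mark. Same-numbered arrays correlated at 0.03, -0.007 and -0.166 in their deviations from the group means, and differently numbered ones at -0.197 to 0.153. With 3 arrays a group such values cannot decide whether the numbers pair the samples. Same-numbered arrays of the 2 groups were alike in Xist, high on arrays 1 and 2 and low on array 3. With that number as a replicate block, 0 members and 0 genes passed. With 3 arrays a group and dim probe sets such as that of Cox7b2, small differences were not detectable.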
